A study of Mus musculus with 2 samples.

Results

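Genes that hold blood cells in the bone marrow or let them leave it were followed in single marrow cells. They were the ligands Cxcl12 and Kitl, the chemokine receptors Cxcr4, Cxcr2 and Ccr2, and the integrin subunits Itga4 and Itgb1. These 7 genes were taken by symbol from the 32285 genes of the deposited count matrices, and all 7 were found. One library held the marrow of 1 mouse labelled WT, which by the study's methods was a littermate with floxed Ddx41 alleles, no VavCre and intact cGas, and is called control here. The other held the marrow of 1 mouse of genotype VavCre:Ddx41 fl/fl, cGAS-/- (DKO), which lacks the RNA helicase gene Ddx41 in blood cells and the DNA sensor gene cGas in all cells. Both mice were 2 months old. Their marrow was flushed out with PBS and captured with the Chromium 3' v3 chemistry, which tags each transcript with a unique molecular identifier (UMI) and reads it from its 3' end. The Cre driver Vav is active in blood cells, and the paper also names expression in oocytes and endothelial cells. Reticular stromal cells are not its stated target, whereas cGas is missing from them too.

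With 1 mouse and 1 library per genotype, the difference of genotype and the difference between these mice and libraries cannot be told apart. No test between genotypes was made. Levels are given as CPM, the UMIs of a gene scaled to the same total of UMIs of all genes in the cells of a class. Ratios are the log2 of DKO over control, and every interval is a 95% interval that covers counting error only. A gene is called higher or lower in a class where it differs at least 1.5-fold and reaches 20 CPM in a library.

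CXCL12, made by perivascular reticular cells, is the chemokine that keeps CXCR4-bearing stem cells, B lineage cells and neutrophils in the marrow. KITL, the stem cell factor, comes from the same niche and sustains cells that carry the receptor KIT. CXCR2 answers to chemokines that draw mature neutrophils into the blood, and CCR2 is required for classical monocytes to leave the marrow. The α4 and β1 integrin chains pair to form a receptor for VCAM1 and fibronectin, by which progenitors, lymphocytes and erythroblasts adhere to stroma and macrophages.

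The genes lie on separate parts of the genome, here given in GRCm38 with GENCODE M21 annotation, and all 7 are protein coding. Cxcl12 is at chr6:117168535-117181367 on the plus strand and Kitl at chr10:100015630-100100416 on the plus strand. Cxcr4 is at chr1:128588199-128592293 on the minus strand, Cxcr2 at chr1:74153989-74161246 and Ccr2 at chr9:124101950-124113557, both on the plus strand. Itga4 is at chr2:79255426-79333123 and Itgb1 at chr8:128685654-128733200, both on the plus strand. Itga4 overlaps Cerkl on the opposite strand, and the other 6 genes overlap no gene.

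The 250 bases before the start of the ligand Cxcl12 and of its receptor Cxcr4 are shown because they are a pair and between them gave 14 of the 20 calls described here. They are RefSeq sequence of GRCm38.p6, at chr6:117168285-117168534 on the plus strand and chr1:128592300-128592549 on the minus strand. Capitals mark the GC box GGGCGG on either strand, the letters TATAAA on either strand and the NRF1 core GCATGC.
Cxcl12: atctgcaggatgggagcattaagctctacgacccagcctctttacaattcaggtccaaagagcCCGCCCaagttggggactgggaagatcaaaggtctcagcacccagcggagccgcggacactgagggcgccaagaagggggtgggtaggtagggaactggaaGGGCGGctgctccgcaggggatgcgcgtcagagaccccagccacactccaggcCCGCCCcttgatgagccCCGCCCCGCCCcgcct
Cxcr4: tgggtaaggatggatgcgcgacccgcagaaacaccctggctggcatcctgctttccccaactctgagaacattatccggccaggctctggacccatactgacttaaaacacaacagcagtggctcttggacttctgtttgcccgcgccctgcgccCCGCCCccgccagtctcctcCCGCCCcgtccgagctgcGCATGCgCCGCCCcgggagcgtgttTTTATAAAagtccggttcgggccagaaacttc
Both windows are rich in G and C, at 64.4% for Cxcl12 and 61.2% for Cxcr4, against a median of 52.4% over all promoters. Cxcl12 has 14 CpG pairs and Cxcr4 has 19, where the median promoter has 6. The GC box occurs 5 times before Cxcl12 and 3 times before Cxcr4, and 32.7% of 32851 promoter windows of this length hold at least 1. The letters TATAAA occur before Cxcr4 on both strands at overlapping positions, and 12.4% of windows hold them. The NRF1 core occurs once before Cxcr4 and in 6.70% of windows. These matches are a description of letters and not of bound factors.

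After cell calling, 18699 control cells with a median of 4868 UMIs and 13719 DKO cells with a median of 6900 UMIs were kept, and DKO cells were the deeper ones in 14 of 16 classes. The libraries shared 75 cell barcodes. Over all cells Ddx41 stood at 20.2 CPM for the control against 7.99 CPM for the DKO mouse and Cgas at 13.5 against 7.24 CPM, and because 3' reads can lie outside the deleted exons, these levels do not check the deletion. Reticular stromal cells held 8 control and 0 DKO UMIs of Ddx41, which are few counts and do not check it either. The mitochondrial share of the median cell was 0.676% for the control against 0.440% for the DKO mouse. Clusters were named from marker lists, which left cluster 23 (Mgp, Igfbp5, Spp1 and Stab2 among its leading genes) without a name. The 16 named classes with at least 50 cells from each mouse were compared. Plasma cells, with 42 control and 52 DKO cells, were too few.

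Each gene had its own home in the marrow. Cxcl12 and Kitl were highest in reticular stromal cells, Cxcr2 in mature neutrophils, Ccr2 in monocytes and Itgb1 in megakaryocytes, for both mice. Cxcr4 was spread over nearly all blood classes, with small pre-B and immature B cells first for both mice. Itga4 was highest in T or NK cells of the DKO mouse, while in the control pro-B and large pre-B cells stood just above T or NK cells. With finer clusters (Leiden resolution 2), patrolling monocytes formed a class that led for Itga4, at 636 CPM in 142 control cells and 763 CPM in 72 DKO cells. Over all cells together, Cxcr4 stood at 77.8 CPM for the control against 117 CPM for the DKO mouse, a log2 ratio of 0.59. Cxcl12 went from 57.8 to 40.5 CPM (-0.51), and Ccr2 from 122 to 85.1 CPM (-0.52). These sums also carry the different cell make-up of the libraries, so the classes are described one by one.

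**Figure D1:**
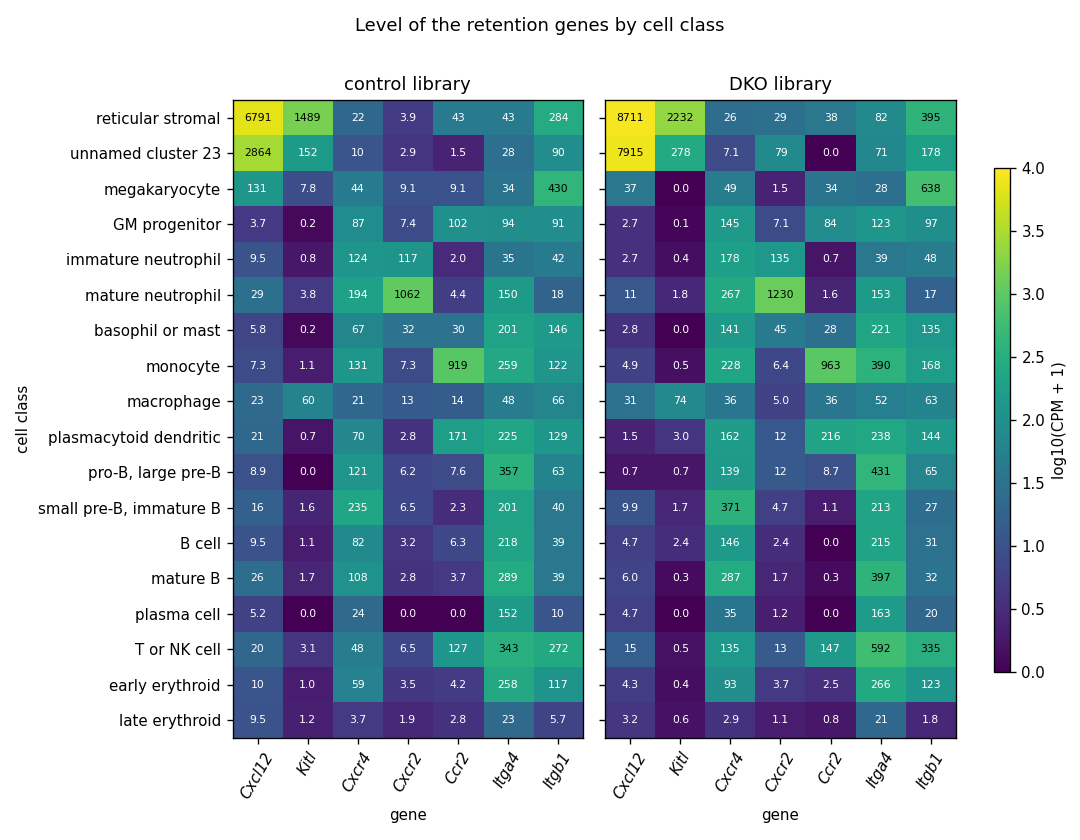
Level of the 7 genes (columns) in each cell class (rows) for the control (left) and DKO mouse (right), with CPM printed in each cell and shaded on a log10(CPM + 1) scale. Cxcl12 and Kitl stand out in reticular stromal cells and cluster 23, Cxcr2 in mature neutrophils and Ccr2 in monocytes, while Cxcr4 and Itga4 are present across most blood classes.

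Reticular stromal cells, named from Lepr, Adipoq, Ebf3, Lpl, Rspo2 and Cxcl14, held 50.2% of all control Cxcl12 UMIs and 64.1% of all DKO Cxcl12 UMIs. Their Cxcl12 level was 6791 CPM in 108 control cells (3447 UMIs) against 8711 CPM in 58 DKO cells (2978 UMIs). The log2 ratio was 0.36, with an interval from 0.29 to 0.43, which is below the 1.5-fold limit. A UMI of Cxcl12 was found in 83 of 108 cells from the control and in 45 of 58 from the DKO mouse. Few cells carried much of it, as the 5 cells with the most Cxcl12 held 44.9% of the control UMIs of the class and 50.9% of its DKO UMIs. The median cell had 1459 CPM in the control against 2391 CPM in the DKO mouse, and without the top cell of each library the ratio was 0.45. The ratio passed 1.5-fold with coarser clusters (0.73) and with clusters from a single short run (0.68). There the class was wider, with 268 control and 109 DKO cells and with 252 and 106 cells. Its leading genes then included Mgp and Ibsp, which also lead cluster 23, so these ratios are not of the same cells. Thinned to 1000 UMIs per cell, 75.0% of reticular cells from the control and 88.4% from the DKO mouse showed Cxcl12, with overlapping intervals. Late erythroid cells, which should lack the gene, gave 1.12% and 0.279%, at median depths of 5327 and 8042 UMIs against 2194 and 3332 UMIs in reticular cells.

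Cluster 23 came second, at 2864 CPM in 207 control cells against 7915 CPM in 56 DKO cells. Its hemoglobin share was 62.5% for the control and 49.6% for the DKO mouse. When the cells of cluster 23 and the reticular cells were clustered again together, 95 control but 10 DKO cells fell into a hemoglobin-rich sub-cluster where Cxcl12 was 468 and 305 CPM. The ratio of cluster 23 (1.47) thus compares unlike mixtures, and it was not counted among the calls. The highest Cxcl12 level of all was in a sub-cluster led by Saa3, Rgs5 and Acta2, where 4 of 5 osteoblast-lineage markers were raised, with 22327 CPM in 53 control cells and 30573 CPM in 25 DKO cells. This sub-cluster also held the reticular markers Lepr (1556 and 2367 CPM) and Adipoq (829 and 1324 CPM), with Ebf3 at 321 and 522 CPM. Next came a sub-cluster led by Dlg2, Itga2b and Dmp1, with 14619.8 and 16245 CPM. A sub-cluster with 6 of 8 endothelial markers raised had 6824 CPM in 16 control cells and 14601 CPM in 6 DKO cells. In each of these 3 sub-clusters the DKO value was above the control value, on few cells. Another sub-cluster, with 8 of 8 endothelial markers raised, had less Cxcl12, at 2358 CPM in 18 control cells and 4290 CPM in 4 DKO cells. The endothelial marker Kdr stood at 782 and 1396 CPM there, against 333 and 467 CPM in the sub-cluster with 6 of 8 markers.

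Outside the stroma Cxcl12 was low, and there it mostly ran the other way. It was lower in DKO in 14 of the 16 classes compared, and in 9 of them the counting interval lay below 0. Mature neutrophils had 29.3 CPM in the control against 11.3 CPM in the DKO mouse (-1.37, with an interval below 0), where 5.64% of all genes tested were called lower. Mature B cells went from 25.8 to 5.97 CPM (-2.05, interval -2.93 to -1.37), where 4.17% of genes were called lower. That ratio turned to 0.34 when only barcodes above each library's UMI threshold were kept. Plasmacytoid dendritic cells had 59 control UMIs against 2 in DKO cells (-3.26, interval -6.90 to -1.90), where 4.7% of genes were called lower. Both levels in this class, 20.9 and 1.48 CPM, lay below the upper limits of free RNA described further on (24.7 and 17.1 CPM). Most of the neutrophil difference lay in the cluster led by Il1b, at 55.5 and 13.6 CPM. Late erythroid cells had 274 and 115 UMIs of Cxcl12 (-1.55, interval -1.88 to -1.23). Macrophages were the blood class with the opposite sign, at 23.2 and 30.8 CPM (0.42, interval -0.24 to 1.04), and the ratio was -0.03 without the top cell of each library.

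In the megakaryocyte class 1 cell held much of the Cxcl12 count. The level was 131 CPM for the control against 36.9 CPM for the DKO mouse (-1.78, interval -2.51 to -1.22), where 11.8% of genes were called lower. A single control cell held 126 of the 202 control UMIs, or 62.4%. Without the top cell of each library 76 control and 15 DKO UMIs remained, and the ratio, at -1.0 (interval -1.98 to -0.26), was still past the limit. With every cell weighing the same the ratio was -0.23, and with a mitochondrial limit of 10% it was -0.44. In the control megakaryocytes that had a Cxcl12 UMI, the reticular stromal markers summed to 314 CPM, against 10.0 CPM in those without.

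Free RNA bears on these low values. For the control, where all droplets were deposited, the 1125245 barcodes with at most 100 UMIs held 1017 Cxcl12 UMIs, or 250 CPM, which is 4.32 times the level in cells. Kitl was 3.21 times as high in these droplets as in cells, and the stromal marker Lepr 4.36 times. The blood receptors stood lower, with 1.10 for Cxcr4, 0.698 for Cxcr2 and 0.694 for Ccr2. An upper limit of free RNA was set in each class from the scarcest of the 50 most abundant free genes, with the control profile used for both libraries. Cxcl12 was above this limit in 12 of 16 control classes and 11 of 16 DKO classes, but above 3 times the limit in only 3 and 3. The limit was lower in DKO than in the control in 15 of the 16 classes, which is also the direction of most of the Cxcl12 ratios. The free RNA of the DKO library was not measured, and the part of free RNA in these ratios was not tested. With free RNA subtracted at this limit, the ratio moved from -1.37 to -3.37 in mature neutrophils and from -2.05 to -2.97 in mature B cells, and in plasmacytoid dendritic cells nothing was left in either library. Cxcr4 was above 3 times its limit in 14 control and 16 DKO classes, and Itga4 in 15 and 16.

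**Figure D2:**
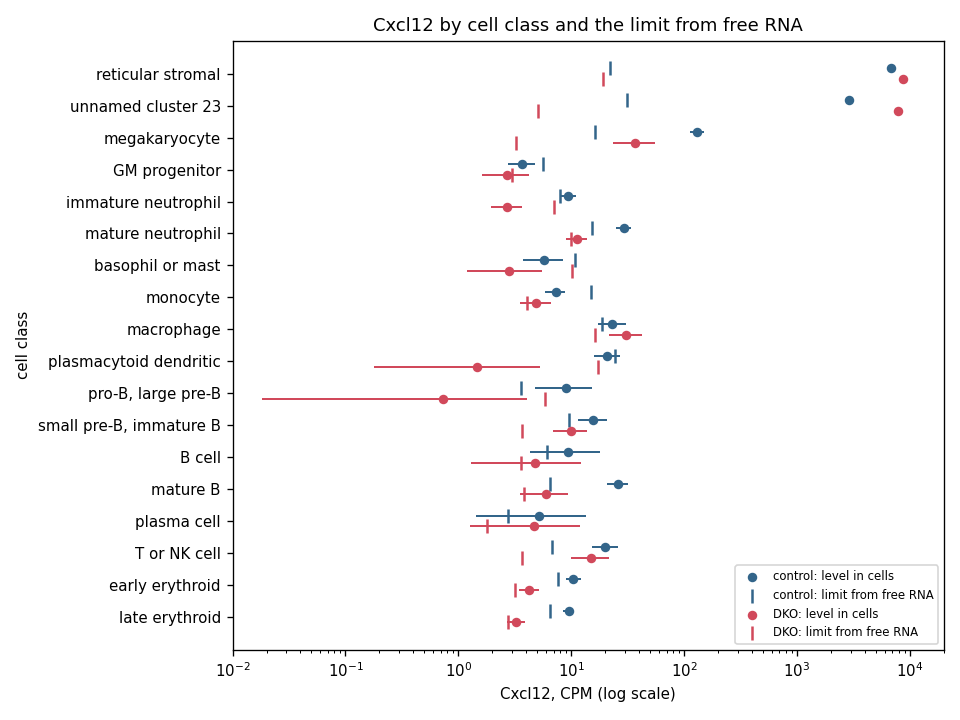
Cxcl12 level (CPM, log axis) in each cell class for the control (blue) and DKO mouse (red), with 95% Poisson intervals as lines and the upper limit from free RNA as a vertical tick. Reticular stromal cells (6791 and 8711 CPM) and cluster 23 lie far above the limit, while most blood classes lie near it and the DKO points lie mostly to the left of the control points.

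Kitl had the same home as Cxcl12, and over the 16 classes the log2 levels of both ligands had a Pearson correlation of 0.92, as a description of classes that share 2 libraries. Reticular stromal cells had 1489 CPM in the control (756 UMIs) against 2232 CPM in the DKO mouse (763 UMIs). The log2 ratio was 0.58 (interval 0.44 to 0.73) and the fold 1.499, just inside the limit, so Kitl was not called. Changes of the processing put it on either side of the limit. The ratio was 1.12 with only the barcodes above each library's UMI threshold, but 0.22 when every cell weighed the same. It was 1.02 with coarser clusters and 0.98 with clusters from a single short run, both in the wider class described for Cxcl12. The class held 66.5% of all control Kitl UMIs and 79.5% of all DKO Kitl UMIs. A UMI of Kitl was found in 89 of 108 cells from the control and in 51 of 58 from the DKO mouse. Thinned to 1000 UMIs it was found in 55 of 80 and 37 of 43 cells, with overlapping intervals, where late erythroid cells gave 0.0559% and 0.0233%. Kitl was spread more evenly than Cxcl12, with 27.5% of its control UMIs and 40.5% of its DKO UMIs in the top 5 cells.

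Kitl and Cxcl12 did not peak in the same stromal cells. The highest Kitl level was in a sub-cluster of 11 control and 13 DKO cells, at 3979 and 3226 CPM, where Ebf3 stood at 5649 and 3992 CPM and Cxcl12 at 4023 and 6951 CPM. The sub-cluster that led for Cxcl12 had 1167 and 1204 CPM of Kitl. Beyond the stroma, macrophages had 59.5 and 74.2 CPM of Kitl (0.32). The level was highest in cluster 25, which is led by Mertk and also holds Vcam1 among its leading genes, with 187 CPM in 113 control cells and 212 CPM in 53 DKO cells. The larger macrophage cluster, led by the complement genes C1qa, C1qc and C1qb, had 21.6 and 27.8 CPM. In every other compared class Kitl was at most 7.81 CPM for both mice.

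Markers of other cells were not equal in the reticular stromal class of both mice. The 5 granulocyte-monocyte progenitor markers summed to 3369 CPM in control and 35.1 CPM in DKO reticular cells, and 93.6% of the control sum lay in 1 cell. The megakaryocyte markers summed to 538 and 93.6 CPM and the monocyte markers to 520 and 81.9 CPM. The 8 neutrophil markers summed to 8993 and 5043 CPM and the 8 endothelial markers to 910 and 1047 CPM. Osteoblast-lineage markers summed to 3984 CPM for the control against 1422 CPM for the DKO mouse. Without the 2 control cells that held at least 10 UMIs of the progenitor markers, the ratio was 0.25 for Cxcl12 (interval 0.18 to 0.32) and 0.42 for Kitl (interval 0.27 to 0.57). Of the 5 osteoblast-lineage markers, 5 had a UMI in control and 4 in DKO reticular cells, and their part in these ratios was not tested.

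Of the 7 retention genes tested in reticular stromal cells, Itga4 and Cxcr2 were called higher, where 18.1% of all genes were called higher in this small class. Itga4 had 22 UMIs at 43.3 CPM in the control against 28 UMIs at 81.9 CPM in the DKO mouse, and Cxcr2 had 2 and 10 UMIs. Both rest on few counts of genes that blood classes express more. Itga4 turned to -0.17 with every cell weighing the same, and Cxcr2 to -0.31 with only the barcodes above each library's UMI threshold. Of the 47 other genes of the retention pathway fixed as a list, 23 were tested here, 9 were called higher and 7 lower, beside 18.1% and 16.2% of all genes. Vcam1, the stromal ligand of the α4β1 integrin, was the highest of the list at 595 CPM in the control and 1214 CPM in DKO (1.03, interval 0.81 to 1.25). Csf1, the macrophage growth factor, had 197 and 407 CPM (1.04). The neutrophil proteases Prtn3 (1109 and 20.5 CPM), Elane (1017 and 5.85 CPM) and Ctsg (603 and 2.93 CPM) were lower, and they are among the progenitor markers held mostly by 1 control cell.

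Cxcr4, the receptor for CXCL12, was higher in DKO in 15 of the 16 classes, and in 12 of them the counting interval lay above 0. It was called higher in 10 of the 15 classes where it was tested and lower in none. These were mature B cells, small pre-B and immature B cells, B cells outside the named stages, T or NK cells, plasmacytoid dendritic cells, monocytes, macrophages, basophils or mast cells, granulocyte-monocyte progenitors and early erythroid cells. The exception in direction was late erythroid cells, at 3.74 and 2.90 CPM, where the gene was hardly detected. The share of all genes called higher was 7.82% in mature B cells, 11.7% in T or NK cells, 4.4% in monocytes, 2.78% in basophils or mast cells and 0.927% in early erythroid cells. It was 4.04% in small pre-B and immature B cells, 12.3% in the other B cells, 7.07% in granulocyte-monocyte progenitors, 11.4% in plasmacytoid dendritic cells and 11.1% in macrophages.

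Of the classes compared, T or NK cells had the largest Cxcr4 ratio (1.48, interval 1.18 to 1.79). They had 48.1 CPM (141 UMIs) for the control and 135 CPM (252 UMIs) for the DKO mouse. With finer clusters (Leiden resolution 2), patrolling monocytes had a larger ratio, at 99.9 and 354 CPM (1.81, interval 1.31 to 2.37). Mature B cells had 108 CPM (381 UMIs) and 287 CPM (865 UMIs), a ratio of 1.41 with an interval from 1.23 to 1.59. Ranked among all genes tested in the class, the Cxcr4 ratio lay at percentile 99.3 in T or NK cells, 99.8 in mature B cells, 99.7 in basophils or mast cells, 99.4 in early erythroid cells and 99.2 in monocytes. In megakaryocytes, where the ratio was 0.20, it lay at percentile 51.3.

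Among the other classes past the limit, plasmacytoid dendritic cells had 70.0 and 162 CPM (1.21) and basophils or mast cells 67.0 and 141 CPM (1.07). Monocytes went from 131 to 228 CPM (0.80, interval 0.71 to 0.90). Granulocyte-monocyte progenitors had 87.2 and 145 CPM (0.73), and B cells outside the named stages 81.9 and 146 CPM (0.83). Small pre-B and immature B cells, the class with the most Cxcr4, had 235 and 371 CPM (0.66). Early erythroid cells had 58.7 and 93.2 CPM (0.67), a call that was lost with every cell weighing the same (0.53). Of the 3 clusters in this class, cluster 3 had 72.5 and 112 CPM (0.62, interval 0.50 to 0.74). Cluster 11, with 26.1 and 26.2 CPM (0.02), and cluster 14, with 32.9 and 40.6 CPM (0.30), had intervals that included 0. Macrophages had 49 and 43 UMIs at 21.5 and 35.8 CPM (0.74, interval 0.11 to 1.36), a call that was lost with doublets kept (0.52) and without the top cell of each library (0.53).

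The classes that did not pass the limit were spread over several lineages. Mature neutrophils had 194 and 267 CPM (0.46, interval 0.36 to 0.57) and immature neutrophils 124 and 178 CPM (0.52, interval 0.43 to 0.60), with intervals above 0. Pro-B and large pre-B cells had 121 and 139 CPM (0.20, interval -0.10 to 0.51). Megakaryocytes and reticular stromal cells had at most 49.2 CPM and intervals that included 0.

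Because DKO cells were deeper, the share of cells with a Cxcr4 UMI was also compared after thinning each cell to 1000 UMIs, which left out 1338 control and 857 DKO cells. The share was higher in DKO in 14 of 16 classes, and the intervals lay apart in 7. Mature B cells gave 10.7% of control and 25.7% of DKO cells, where 23.4% and 59.8% had a UMI before thinning. Small pre-B and immature B cells gave 23.2% and 38.0% (50.7% and 79.5% before thinning), and mature neutrophils 18.6% and 24.2% (43.6% and 57.6%). T or NK cells gave 4.24% and 12.0% (16.5% and 44.7%), and monocytes 9.41% and 17.6% (42.6% and 70.7%). Late erythroid cells, at a median of 5327 UMIs per control cell and 8042 per DKO cell, gave 0.280% and 0.349%, far below these shares. The median was 2552 and 3612 UMIs for mature B cells and 4073 and 5140 for T or NK cells.

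Cxcr4 was higher in DKO in both T and NK cells. Cells with more T cell than NK markers had 47.0 CPM in 410 control cells against 139 CPM in 198 DKO cells, a log2 ratio of 1.56. Cells with more NK markers had 53.8 CPM (167 cells) and 150 CPM (73 cells), a ratio of 1.47. Of 916 cells of the class, 124 lay within 1 UMI of the border between these groups, and T cells were 67.8% of the control class and 63.7% of the DKO class.

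The levels of 14 early response genes such as Fos, Jun and Egr1, a list chosen after values had been seen, were summed beside Cxcr4. Their summed level was lower in DKO in 15 of 16 classes, with log2 ratios from -0.77 to 0.20, and their part in the Cxcr4 ratios was not tested. Over the 16 classes the ratio of this sum and that of Cxcr4 had a Pearson correlation of 0.21. Of the list of 47 pathway genes, 17 were tested in mature B cells, 1 was called higher and 5 lower, beside 7.82% and 4.17% of all genes. The one called higher was Ccr7 (79.9 and 129 CPM), a receptor for lymph node homing. Of the genes called lower, Pf4 (62.0 and 22.5 CPM) and Ppbp (58.1 and 16.9 CPM) are platelet genes and Prtn3 (34.3 and 11.9 CPM) and Elane (27.8 and 13.3 CPM) granule genes, low in these cells as Cxcl12 was. In small pre-B and immature B cells, Il7r was the highest of the list at 516 and 597 CPM, and of 15 genes tested 0 were called higher and 5 lower, beside 4.04% and 2.7% of all genes.

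**Figure D3:**
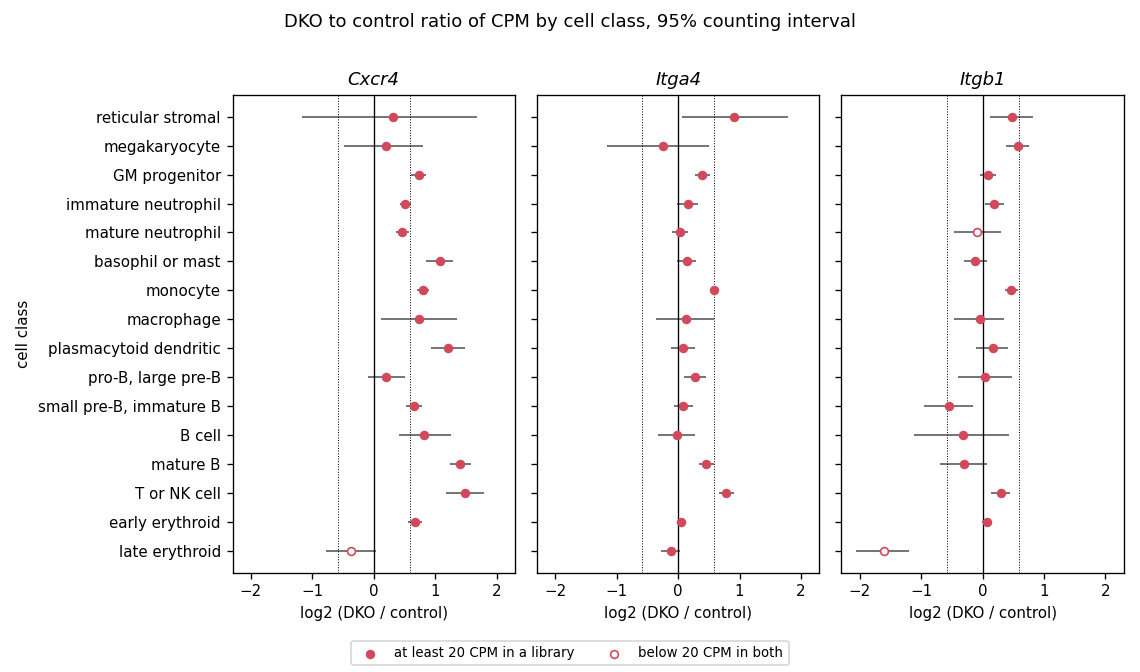
Log2 ratio of DKO over control for Cxcr4, Itga4 and Itgb1 in the 16 classes compared, with 95% counting intervals as lines and dotted lines at 1.5-fold; open points mark genes below 20 CPM in both libraries. Cxcr4 points lie right of 0 in 15 classes, with mature B (1.41) and T or NK cells (1.48) farthest, whereas most Itga4 and Itgb1 points lie near 0.

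Along neutrophil maturation the receptors changed places. The cells were taken as 5 clusters, named by their leading genes Elane, Fcnb, Ltf, Retnlg and Il1b and ordered from granulocyte-monocyte progenitors over immature to mature neutrophils. Cxcr2, the receptor for release, climbed over these 5 clusters from 7.43 to 24.7, 162, 920 and 1317 CPM in the control. In the DKO mouse it went from 7.09 CPM in the Elane cluster to 195, 1057 and 1531 CPM in the last 3 clusters. Cxcr4 had a far narrower range, with 87.2, 103, 134, 197 and 188 CPM in the control. In the DKO mouse Cxcr4 had 145, 160, 187, 235 and 322 CPM, and it was higher there in each of the 5 clusters. The Cxcr4 ratio was widest at both ends, at 0.73 in the Elane cluster and 0.77 in the Il1b cluster, and smallest in the Retnlg cluster at 0.26.

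In the mature neutrophil class as a whole, Cxcr2 had 1062 CPM in the control against 1230 CPM in the DKO mouse (0.21, interval 0.17 to 0.26), below the limit. With only the barcodes above each library's UMI threshold the ratio was -0.15. The class held 72.9% of all control and 79.3% of all DKO Cxcr2 UMIs, and it made up 9.91% of control cells against 14.5% of DKO cells. Immature neutrophils had 117 and 135 CPM (0.21, interval 0.11 to 0.30), at percentile 52.0 among the ratios of all genes tested there. This ratio turned to -0.41 with only the barcodes above the threshold and to -0.47 with clusters from a single short run. The clusters on either side of the border to the mature class, which such settings shift, had 162 and 920 CPM in the control. Basophils or mast cells had 32.0 and 45.3 CPM (0.50, interval 0.15 to 0.85). All other compared classes except reticular cells, with their 10 DKO UMIs, had under 20 CPM.

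The same mature neutrophil carried both receptors about as often as their separate shares give. Thinned to 1000 UMIs, 215 of 1784 control cells had UMIs of both Cxcr4 and Cxcr2, where independent detection gives 217.7. For the DKO mouse it was 339 of 1958 cells, where independent detection gives 337.7. Of the 47 pathway genes, 16 were tested in mature neutrophils, 0 were called higher and 4 lower, beside 6.77% and 5.64% of all genes. Mmp9, a secreted protease of neutrophil granules, led the list at 2119 and 2285 CPM. Those called lower were Pf4 (54.4 and 15.8 CPM), Ppbp (55.1 and 11.1 CPM), Prtn3 (35.3 and 10.5 CPM) and Elane (31.9 and 15.1 CPM).

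**Figure D4:**
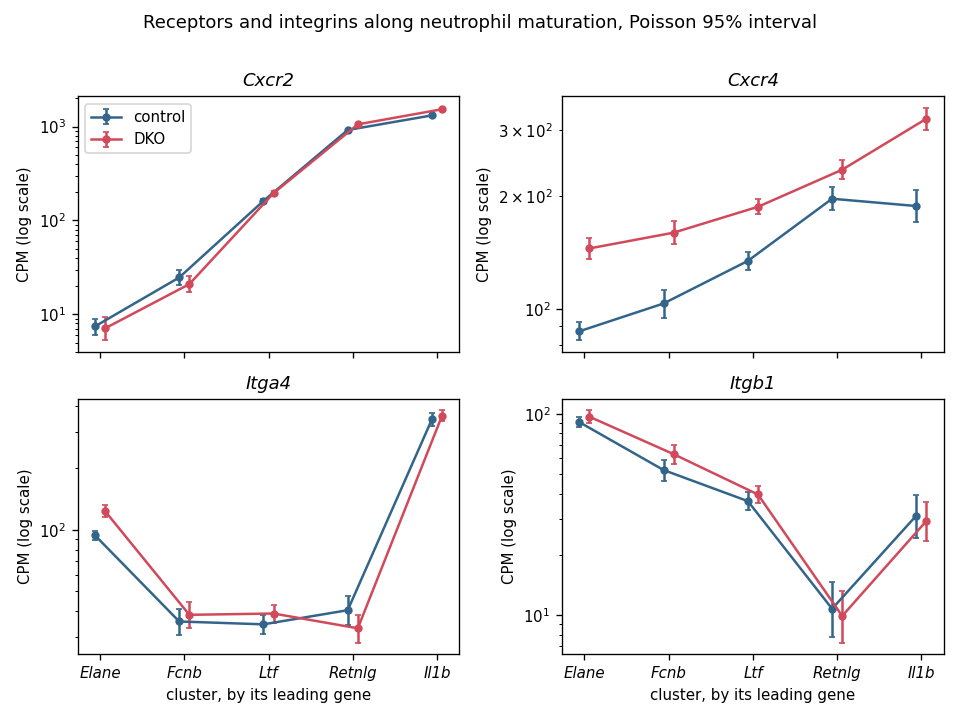
Levels (CPM, log axis) of Cxcr2, Cxcr4, Itga4 and Itgb1 in 5 clusters ordered from the Elane cluster to the Il1b cluster, for the control (blue) and DKO mouse (red), with 95% Poisson intervals. Cxcr2 climbs from 7.43 to 1317 CPM in the control and from 7.09 to 1531 CPM in DKO, Cxcr4 is higher in DKO in each cluster, and Itga4 returns in the last cluster while Itgb1 does not reach its first level again.

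Among the classes compared, Ccr2 was highest in monocytes of both mice, which held 81.1% of its control and 85.2% of its DKO UMIs. The level was 919 CPM in the control (11771 UMIs) against 963 CPM in the DKO mouse (8308 UMIs). The ratio was 0.07 (interval 0.03 to 0.11), at percentile 44.3 among all genes tested in the class. The lower level of Ccr2 over all DKO cells went with fewer monocytes, 7.24% of control against 5.03% of DKO cells, while the level within monocytes was not lower. Among these classes, plasmacytoid dendritic cells followed at 171 and 216 CPM (0.33). That ratio turned to -0.71 with only the barcodes above each library's UMI threshold and passed the limit with doublets kept (0.69). T or NK cells had 127 and 147 CPM, and in the cells with more NK markers Ccr2 was 293 and 366 CPM. Granulocyte-monocyte progenitors had 102 CPM in the control and 84.5 CPM in DKO (-0.27), which moved to -1.48 with a mitochondrial limit of 10% and to -2.38 with only the barcodes above the threshold, but to 0.04 with clusters from a single short run. The order of these 4 classes was the same in both mice, and none of these neighbours had overlapping intervals over both libraries together. With finer clusters (Leiden resolution 2), conventional dendritic cells formed a class with 960 and 1054 CPM, and patrolling monocytes had 425 and 385 CPM. The other monocytes had 1031 and 1096 CPM there, and plasmacytoid dendritic cells 203 and 232 CPM.

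Ccr2 was called higher in 2 classes that hold little of it. Macrophages had 32 control and 43 DKO UMIs at 14.0 and 35.8 CPM (1.34, interval 0.66 to 2.06). This fell below the limit with a mitochondrial limit of 10% (0.28), with only the barcodes above the UMI threshold (0.43) and with clusters from a single short run (0.45). Megakaryocytes had 14 and 22 UMIs at 9.11 and 33.8 CPM (1.86, interval 0.86 to 2.97), where 19.8% of genes were called higher. Without the top cell of each library they had 5 UMIs and 1 UMI, with a ratio of -0.30, and the call was also lost with doublets kept (0.29) and with every cell weighing the same (0.18). In mature neutrophils Ccr2 was nearly absent, at 4.44 and 1.57 CPM. Of the pathway list in monocytes, Fn1, which makes fibronectin, led at 1422 and 1641 CPM, and of 21 genes tested 1 was called higher and 3 lower, beside 4.4% and 2.09% of all genes. Itgal, the α chain of LFA-1, was the one called higher (97.8 and 147 CPM). Pf4 (27.5 and 11.0 CPM), Mmp9 (21.8 and 13.8 CPM) and Ppbp (20.5 and 4.87 CPM) were called lower.

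Itga4, the α4 chain, was tested in all 16 classes, was higher in DKO in 13 and was called higher in 3. These were T or NK cells, monocytes and reticular stromal cells, where 11.7%, 4.4% and 18.1% of all genes were called higher. Its ratio lay at percentiles 95.1, 95.8 and 90.7 there. In some of the 13 classes it lay below the median gene, as in immature neutrophils (0.15 against 0.19) and plasmacytoid dendritic cells (0.08 against 0.14). T or NK cells had 343 CPM (1007 UMIs) for the control and 592 CPM (1108 UMIs) for the DKO mouse (0.79, interval 0.66 to 0.91). Monocytes had 259 and 390 CPM (0.59, interval 0.52 to 0.66), a fold of 1.504 that fell inside the limit with every cell weighing the same (0.53), with scaling without hemoglobin genes (0.57) and without the shared barcodes (0.58). Reticular stromal cells were the third class, on the few UMIs given above. Mature B cells had 289 and 397 CPM (0.46, interval 0.34 to 0.58), below the limit. Pro-B and large pre-B cells, just above T or NK cells in the control, had 357 and 431 CPM (0.27, interval 0.10 to 0.45).

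Within the T or NK class, the cells with more T cell markers had 300 and 524 CPM of Itga4 (0.81) and those with more NK markers 452 and 673 CPM (0.57). The shares of cells with a UMI, thinned to 1000 UMIs, had intervals apart in T or NK cells (28.1% and 39.9%), mature B cells (22.1% and 30.4%) and monocytes (26.3% and 36.3%), where 59.3% and 73.6%, 47.5% and 66.0%, and 77.8% and 91.6% had a UMI before thinning. In mature neutrophils the thinned share was lower in DKO (15.6% and 12.3%) while the level was not (150 and 153 CPM), so no order is read there. Late erythroid cells gave 2.44% and 2.0% by the same measure. Of the pathway list in T or NK cells, 25 genes were tested, 4 were called higher and 6 lower, beside 11.7% and 6.86% of all genes. Il7r, the receptor of a T and B cell survival factor, led at 358 and 542 CPM (0.60). Cxcr6 had 84.9 and 137 CPM and Ccr9, a receptor for gut homing, had a ratio of 1.82 (interval 1.42 to 2.25). Prtn3 (60.3 and 6.95 CPM) and Fn1 (49.4 and 1.60 CPM), which are genes of myeloid cells, were lower here.

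In the red cell lineage Itga4, which ties erythroblasts to macrophages, differed little between the mice in the early erythroid class. It was lower by CPM in the late erythroid class as a whole (23.2 and 21.3 CPM) and in each of its clusters, though not on every scale. The interval of the class did not lie below 0. Early erythroid cells had 258 CPM (4207 UMIs) and 266 CPM (6111 UMIs), a ratio of 0.05 (interval -0.01 to 0.10). They held 26.0% of all control and 34.1% of all DKO Itga4 UMIs. Over 8 erythroid clusters ordered by hemoglobin share, Itga4 had 82.5 and 78.2 CPM in the first. It was highest in the third at 429 and 347 CPM (-0.31, interval -0.61 to 0.00) and ended at 5.21 and 1.67 CPM in the last. The third cluster was named late erythroid and had a median of only 1461 UMIs. Scaled without hemoglobin genes, the third cluster had 628 and 689 CPM, so its direction turned with the scaling. The last cluster had 51.6 and 24.4 CPM on that scale.

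Along neutrophil maturation Itga4 was high at both ends. It had 93.9 CPM in the Elane cluster, 34.5 CPM in the Ltf cluster, 40.5 CPM in the Retnlg cluster and 346 CPM in the Il1b cluster of the control. In the DKO mouse these clusters had 123, 39.0, 33.0 and 360 CPM. Itgb1 was lowest in the Retnlg cluster and rose again in the Il1b cluster, but not to its level in the Elane cluster. It had 90.8, 36.8, 10.8 and 31.2 CPM in the control over these 4 clusters, and 96.5, 39.7, 9.91 and 29.4 CPM in the DKO mouse.

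Itgb1, the β1 chain shared by many integrins, was higher in DKO in 9 of 16 classes and called in none of the 14 where it was tested. Megakaryocytes had 430 CPM (661 UMIs) in the control against 638 CPM (415 UMIs) in the DKO mouse (0.57, interval 0.39 to 0.75), a fold of 1.484 just inside the limit. It passed the limit with a mitochondrial limit of 10% (0.61), with every cell weighing the same (0.75) and with free RNA subtracted at its scarcest gene limit (0.59) or at the hemoglobin limit (1.16). Megakaryocytes were 2.11% of control and 0.787% of DKO cells, with a median of 1462.5 and 887.5 UMIs. Next in level were reticular stromal cells at 284 and 395 CPM (0.48) and T or NK cells at 272 and 335 CPM (0.30), whose intervals overlapped over both libraries together. The reticular ratio passed the limit with only the barcodes above the UMI threshold (0.80). It also did so in the wider class from coarser clusters (0.77) and from a single short run (0.73). Small pre-B and immature B cells were lower in DKO, at 39.6 and 27.0 CPM (-0.55, interval -0.95 to -0.16), below the limit. Late erythroid cells had 5.65 and 1.83 CPM.

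Of the pathway list in megakaryocytes, 16 genes were tested, 5 were called higher and 8 lower, beside 19.8% and 11.8% of all genes. Pf4, a platelet chemokine, led at 13575 CPM in the control against 21415 CPM in DKO (0.66). Itga6, a chain that pairs with β1 to bind laminin, had 1360 and 2084 CPM (0.62), Itgb2 had 87.2 and 187 CPM, Itgal had 78.7 and 129 CPM and Cxcl5 had 61.2 and 99.9 CPM.

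Over all members, 66 pairs of a gene and a class were tested and 20 were called, where the share of all genes called in a direction ran from 0.927% to 19.8% over the classes and directions that hold these calls. Cxcr4 made up 10 of the higher calls, Itga4 3, Ccr2 2 and Cxcr2 1, while all 4 lower calls were Cxcl12, in mature neutrophils, mature B cells, plasmacytoid dendritic cells and megakaryocytes. Kitl was tested in 2 classes and called in none, and Itgb1 was called in none.

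The genes whose levels over the 16 classes were most like each member were found by Pearson correlation of log2(CPM + 5) among 10766 genes, as a description of classes that share 2 libraries. For Cxcl12 they were Mgp (0.99), Igfbp5 (0.99) and Ibsp (0.99), and for Kitl they were A4galt (0.99), Dlc1 (0.99) and Dab2 (0.99), all 6 highest in reticular stromal cells. For Cxcr2 they were Adam8 (0.98), Il1r2 (0.97) and E230014E18Rik (0.97), and for Ccr2 they were S100a4 (0.98), Cx3cr1 (0.95) and Fn1 (0.93). For Cxcr4 they were Mir142hg (0.92), Gpank1 (0.92) and Rtf2 (0.92), for Itga4 Aim2 (0.93), Rps27rt (0.88) and Apobec3 (0.87), and for Itgb1 Dipk2a (0.88), Fut11 (0.87) and Ssbp4 (0.86). The α4 and β1 chains themselves had a correlation of 0.14 across classes.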

How the data were processed

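Reads had been turned into counts by the authors with Cell Ranger (7.1.0 in the file headers) on mm10, the build in the submitters' notes. The deposited values are raw UMI counts per gene and barcode, with all barcodes for the control but only called cells for the DKO library, so both libraries rest on different cell calling. Control cells were called from 500 UMIs up against barcodes of at most 100 UMIs (10000 draws, false discovery rate 0.01). Cells over 20% mitochondrial UMIs and Scrublet doublets (1.97% control, 1.49% DKO) were left out, leaving 118862957 and 114664975 UMIs. Clustering (2000 variable genes, 30 components, 15 neighbors, Leiden resolution 1, the best of 10 starts) left out the 7 members. Clusters were named from marker lists by a rule settled after clusters had been seen, and the number of starts and the order of the neutrophil clusters (by class, then by falling Camp) were likewise chosen after seeing the data. Intervals are exact Poisson for levels, Clopper-Pearson for shares and conditional binomial for ratios with 1 count added. The members and gene lists were chosen with earlier results of these data known. Named genes are the 7 members, the leading pathway gene where a member was highest, pathway genes past 1.5-fold (at most 5 a class, by level) and the 3 genes most like each member. Values of a further listed gene are not reported here. In simulated mature B libraries (5883 genes), 97% of 2-fold changes passed the limit, as did 0.246% of unchanged genes. In simulated reticular stromal libraries (7424 genes) it was 79.5% and 16.0%. Gene positions came from GENCODE M21 (32158 of 32285 identifiers found) and promoters from RefSeq. Software was scikit-learn 1.9.0, igraph 0.11.9, anndata 0.12.19 and scanpy 1.11.5, with pandas 2.3.3, scipy 1.17.1 and numpy 2.4.6 under Python 3.11.15.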

Additional observations from a re-analysis of the deposited data

How the results depend on the processing

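The spread between mice of one genotype is unknown, no replicate could be left out, and no result was tested. No paired analysis was possible because each group has 1 library. Depth limits the small classes, where a ratio can rest on few UMIs. In the classes where each member was highest, the log2 ratio moved as follows. With only the barcodes above each library's UMI threshold it was 0.56 for Cxcl12, 1.12 for Kitl, -0.15 for Cxcr2, 0.13 for Ccr2 and 0.93 for Itga4. Leiden resolution 0.5 gave 0.73 for Cxcl12, 1.02 for Kitl and 0.14 for Ccr2, and resolution 2 gave 0.89 for Cxcr4. At resolution 2 the leading class of Itga4 became patrolling monocytes. Clusters from 1 start of 2 passes, added after the data were seen, gave 0.68 for Cxcl12, 0.98 for Kitl and 0.16 for Cxcr2. Both this setting and resolution 0.5 had a wider reticular class, as given above. Doublets kept gave 0.17 for Cxcr2 and 0.12 for Ccr2, and a mitochondrial limit of 10% gave 0.20 for Ccr2. With every cell weighing the same, Cxcl12 was 0.45, Kitl 0.22 and Itgb1 0.75. Subtracting free RNA at the hemoglobin limit gave 0.94 for Itga4 and 1.16 for Itgb1; it was not computed for erythroid classes or where both levels came to 0. Elsewhere 4 calls changed sign, Cxcl12 in mature B cells (0.34) and Cxcr2 in reticular stromal cells (-0.31) above the UMI threshold, Itga4 in reticular stromal cells (-0.17) with cells weighing the same, and Ccr2 in megakaryocytes (-0.30) without the top cell of each library, a setting added after the data were seen. The causes were not tested. Of 66 ratios, 66 moved by less than their interval without the shared barcodes, as did 60 of 65 with free RNA subtracted at the scarcest gene limit, both also added later. Fewer did so in some other settings, with 30 of 55 for only the barcodes above each library's UMI threshold and 26 of 43 at the hemoglobin limit. With every cell weighing the same 45 of 66 did so, and with a mitochondrial limit of 10% 51 of 63. Cxcr4 was past 1.5-fold in 8 to 10 classes over 12 alternatives, and its lowest ratio was below 0 with every cell weighing the same (-0.24). The 20 calls became 11 at 2-fold, 35 with genes of at least 5 CPM and 53 with no filter on low values.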
